A study of Mus musculus with 8 samples.

Results

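*Phc1*, *Phc2* and *Phc3* are the mouse polyhomeotic genes, and their expression was followed in E14 ES cells before and after treatment with retinoic acid (RA). All probes that the scanner output names *Phc1*, *Phc2* or *Phc3* were taken, leaving out control spots, which gave 4 of the 55681 different probes and 3 of the 21244 genes with a reference symbol on the array. The genes were chosen by their log2 change after RA on these same arrays, *Phc1* being lower and *Phc2* higher, so their changes are given as a description without a test. E14Tg2A.4 is a line of mouse ES cells, all cultures came from this single line, and the labels give no transgene or knockdown for them. Untreated cells were compared with cells that had received 1 µM all-trans RA for 72 h in medium lacking leukemia inhibitory factor. The medium of the untreated cells is not given in the sources used here, and an effect of RA and one of the missing factor cannot be told apart. There were 4 biological replicates a condition, whose total RNA was labelled with Cy3 and hybridized to Agilent arrays of 1 colour, so that each array measured 1 culture by the brightness of its spots.

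Polyhomeotic proteins are subunits of the canonical form of Polycomb repressive complex 1 (PRC1), which represses developmental genes. The catalytic core of PRC1 is a Ring1 protein with a Pcgf protein, which ubiquitinates histone H2A, while a Cbx protein reads trimethylated lysine 27 of histone H3 and a polyhomeotic protein holds complexes together. The SAM domain at the end of polyhomeotic proteins polymerizes, and through it Polycomb-bound chromatin clusters and compacts. Vertebrates have several polyhomeotic genes that can take the same place in the complex. In variant PRC1 complexes Rybp or Yaf2 takes the place of the Cbx and polyhomeotic proteins.

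The probes are printed here because each gene's value rests on 1 or 2 of them, and because paralogs could in principle share a probe. Each is 60 bases long, and the first 30 are shown, from 5′ to 3′ as in the scanner output.
Phc1, first 30 bases: agtctcactgtggctgtagctcagttttct
Phc2, first 30 bases: catacctccaggcagggttggaaatgaagg
Phc3, measured probe, first 30 bases: gagatgggtcttggtttgtacagtagggga
Phc3, second probe, first 30 bases: ctgttttaaaaagcgtatcttccagacaaa
The *Phc1* probe (A_51_P433430) starts at base 3485 of transcript NM_007905 and lies at chr6:122268043-122268102 on the minus strand of mm9. The *Phc2* probe (A_55_P2027067) starts at base 3862 of NM_001195130, at chr4:128430039-128430098 on the plus strand. The first *Phc3* probe (A_52_P142531) starts at base 10043 of NM_153421, at chr3:30799180-30799239 on the minus strand, and the second (A_55_P1985530) at base 3492 of the same transcript, at chr3:30805731-30805790. Whether a probe lies in the coding part or a UTR was not determined here. Among the 6 pairs of these probes the longest stretch of bases in common was 7. The scanner output ties the *Phc1* probe to 2 of the 4 RefSeq mRNAs of its gene, the *Phc2* probe to all 3, and both *Phc3* probes to all 4.

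The RefSeq promoter table (GRCm38.p6) lists 1 start for *Phc1*, 3 for *Phc2* and 1 for *Phc3*, and the 250 bases before each are printed because *Phc1* and *Phc2* moved in opposite directions. Positions are those of that build and cannot be set against the mm9 positions of the probes, and each sequence runs 5′ to 3′ on the strand of its gene. Capitals mark matches, on either strand, to the retinoid receptor half-site AGGTCA, the E-box CACGTG, the octamer ATGCAAAT and the GC box GGGCGG.
Phc1, chr6:122340228-122340477 (minus strand): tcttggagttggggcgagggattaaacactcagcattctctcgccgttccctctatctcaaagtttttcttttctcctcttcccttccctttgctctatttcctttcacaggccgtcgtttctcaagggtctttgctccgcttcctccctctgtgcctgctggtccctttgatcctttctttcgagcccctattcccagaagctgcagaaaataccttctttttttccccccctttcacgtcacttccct
Phc2 start 1, chr4:128654452-128654701 (plus strand): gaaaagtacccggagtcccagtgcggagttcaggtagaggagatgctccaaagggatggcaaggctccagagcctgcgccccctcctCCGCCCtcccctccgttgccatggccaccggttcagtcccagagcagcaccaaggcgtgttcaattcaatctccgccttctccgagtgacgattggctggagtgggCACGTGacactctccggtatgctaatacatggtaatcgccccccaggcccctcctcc
Phc2 start 2, chr4:128688488-128688737 (plus strand): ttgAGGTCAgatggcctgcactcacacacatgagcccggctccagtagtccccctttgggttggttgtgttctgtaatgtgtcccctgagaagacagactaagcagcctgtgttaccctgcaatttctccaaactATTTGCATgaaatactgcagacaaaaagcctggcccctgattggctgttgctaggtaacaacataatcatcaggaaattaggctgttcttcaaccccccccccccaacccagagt
Phc2 start 3, chr4:128727321-128727570 (plus strand): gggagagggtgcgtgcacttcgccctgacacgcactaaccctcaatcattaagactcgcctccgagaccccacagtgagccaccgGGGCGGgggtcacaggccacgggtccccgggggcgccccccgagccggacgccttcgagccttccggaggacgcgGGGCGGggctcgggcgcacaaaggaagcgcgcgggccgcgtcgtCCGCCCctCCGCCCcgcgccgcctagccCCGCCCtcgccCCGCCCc
Phc3, chr3:30969416-30969665 (minus strand): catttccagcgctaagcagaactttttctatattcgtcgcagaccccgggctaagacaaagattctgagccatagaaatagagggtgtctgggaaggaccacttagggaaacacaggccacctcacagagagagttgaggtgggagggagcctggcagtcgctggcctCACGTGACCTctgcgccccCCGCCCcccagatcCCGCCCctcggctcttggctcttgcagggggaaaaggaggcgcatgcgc
The *Phc1* promoter held none of these 4 words. The first *Phc2* start held 1 E-box and 1 GC box, the second an AGGTCA and an octamer, and the third 6 GC boxes. The *Phc3* promoter held 2 GC boxes and an E-box that overlaps an AGGTCA on the other strand. Of 32851 mouse promoters of the same length, 14% held AGGTCA, 6.02% CACGTG, 1.6% ATGCAAAT and 32.7% GGGCGG. The third *Phc2* start was the richest of the 5 in CpG, with 34 and a GC content of 76.0%, against 13 and 61.2% at the first and 1 and 50% at the second. The *Phc1* promoter had 8 CpG and the *Phc3* promoter 12, and the median over all promoters was 6. A match is a description of the letters, and the arrays do not say which *Phc2* start was in use.

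Between 56.7% and 62.7% of the spots on an array were well above background, and none was saturated. Levels are log2 intensities relative to the 75th percentile of the array, so a value of 0 equals that percentile, and the median change of all probes was -0.28 on this scale. The marker genes moved with the labels. *Pou5f1*, a pluripotency factor, fell by 5.54 on the log2 scale (SE 0.61, limma adjusted p = 0.000152), and *Rarb*, an RA receptor induced by RA, rose by 7.21 (SE 0.40, adjusted p = 5.31e-06). Limma tests (2-sided) with Benjamini-Hochberg adjustment over all probes are used below for genes other than the polyhomeotic genes, and a gene is called at an adjusted p below 0.05 with a change above 1.5-fold.

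*Phc1* was the polyhomeotic gene that was lower after RA. On untreated arrays 1 to 4 its level was 4.71, 4.66, 3.98 and 4.90, and on RA arrays 1 to 4 it was 1.90, 2.07, 1.82 and 1.66. All 4 untreated arrays lay above all 4 RA arrays, and the lowest untreated array still stood well clear of the highest RA array. The mean was 4.56 ± 0.40 (SD, n = 4) in untreated cells and 1.86 ± 0.17 (SD, n = 4) after RA. The log2 change was -2.70 (SE 0.22), which is 6.51-fold lower after RA. Of all probes on the array, 3.18% fell at least as far. Before scaling, the processed intensity of the spot was between 16100 and 22100 on untreated arrays and between 3260 and 4350 on RA arrays, and it was well above background on all 8. Because the arrays measured RNA of whole cultures, fewer cells expressing *Phc1* and less *Phc1* RNA per cell cannot be told apart, and this holds for every gene here.

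*Phc2* moved the other way by a similar amount. Its level on untreated arrays 1 to 4 was 2.10, 2.67, 2.93 and 2.43, and on RA arrays 1 to 4 it was 5.20, 5.35, 5.43 and 5.19. Every RA array was above every untreated array, and the RA arrays were close together. The mean went from 2.53 ± 0.35 (SD, n = 4) to 5.29 ± 0.12 (SD, n = 4), a log2 change of 2.76 (SE 0.19) or 6.78-fold. Of all probes, 2.27% rose at least as far. The processed intensity went from between 3310 and 7790 to between 37700 and 43100.

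*Phc3* changed least. Its measured probe read -0.35, -0.54, -1.13 and -1.17 on untreated arrays 1 to 4 and 0.09, -0.42, -0.59 and -0.26 on RA arrays 1 to 4. The 2 conditions overlap, since untreated arrays 1 and 2 lay within the range of the RA arrays. The means were -0.80 ± 0.41 and -0.29 ± 0.29 (SD, n = 4 each), and the log2 change was 0.50 (SE 0.24), or 1.42-fold. Of all probes, 17.4% rose at least as far. The second *Phc3* probe was not well above background on any array, with values between -7.86 and -7.40 in untreated cells and between -7.98 and -7.74 after RA, so no fold change is given for it.

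**Figure D1:**
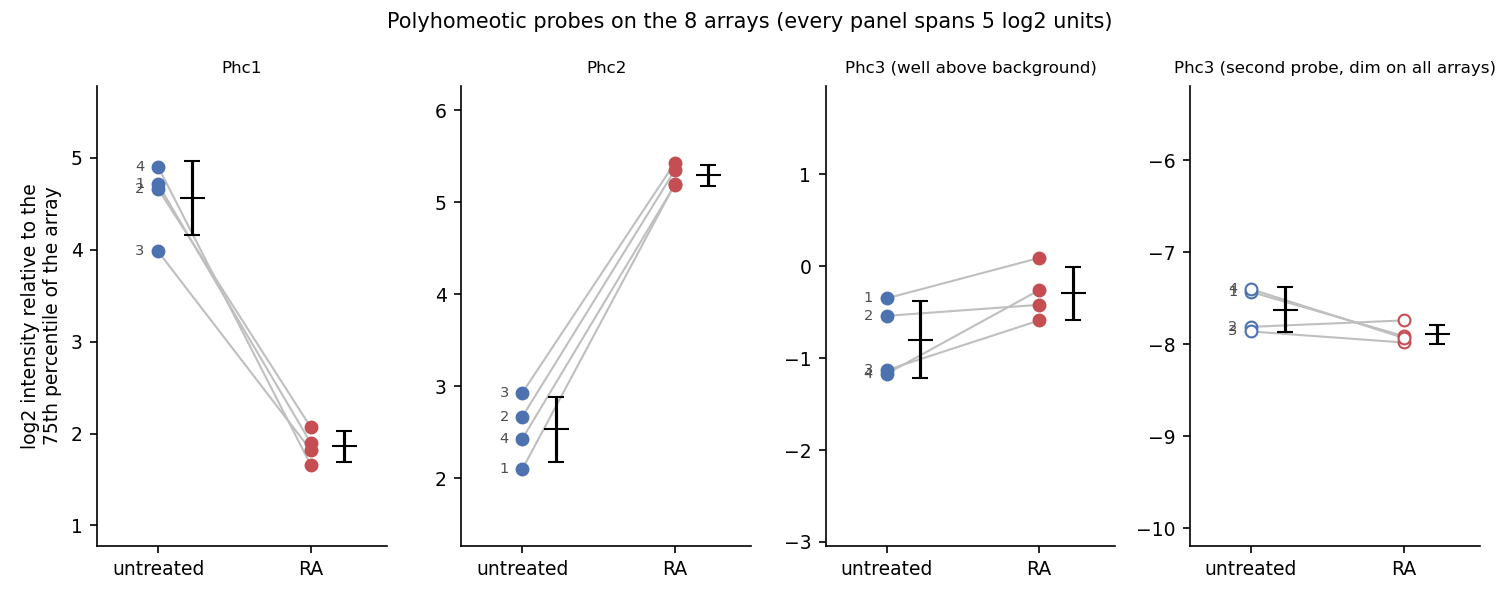
Log2 intensity relative to the 75th percentile of the array for the 4 polyhomeotic probes, with untreated arrays in blue, RA arrays in red, open circles for a probe that was not well above background, grey lines joining arrays of the same replicate number, and bars for the mean ± SD of 4 arrays. Phc1 went from 4.56 to 1.86, Phc2 from 2.53 to 5.29, and the conditions overlap for Phc3; heights cannot be compared between panels, because each probe has its own brightness.

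Thus 2 of the 3 genes changed by more than 1.5-fold without overlap between the conditions, 1 in each direction. Over all genes, each by its brightest probe, 42.2% were called in either direction (18.6% higher and 23.5% lower after RA), and 48.1% had all RA arrays above or all RA arrays below the untreated ones. Over all probes 34.6% were called (12.9% higher and 21.6% lower). The genes were chosen for this contrast, so nothing is read from these shares.

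The spread between cultures was not the same in the 2 conditions. The coefficient of variation of the scaled intensity was 24.7% in untreated cells and 11.9% after RA for *Phc1*, 24% and 8.15% for *Phc2*, and 28.5% and 20.8% for the measured *Phc3* probe. Untreated array 3 had the lowest *Phc1* value and the highest *Phc2* value of its condition. Taken by replicate number, the *Phc1* change was -2.82, -2.59, -2.16 and -3.24, and the *Phc2* change was 3.11, 2.67, 2.50 and 2.76. The same differences for *Phc3* were 0.44, 0.12, 0.54 and 0.91. All 4 pairs of arrays therefore gave the same sign for each gene, and for *Phc1* and *Phc2* replicate 3 gave the smallest change. The arrays lay on 2 slides that each held 2 arrays of each condition. Within the slides *Phc1* changed by -2.57 and -2.84, *Phc2* by 2.68 and 2.84, and *Phc3* by 0.66 and 0.35.

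The difference between 2 polyhomeotic genes on the same array does not depend on the scaling by percentile, and its change shows how unequally they moved. Set to 0 at the mean of the untreated arrays, *Phc2* minus *Phc1* was -0.58, 0.04, 0.98 and -0.44 on untreated arrays 1 to 4 and 5.34, 5.31, 5.65 and 5.56 on RA arrays 1 to 4. The balance shifted towards *Phc2* by 5.46 on the log2 scale (SD 0.71 untreated and 0.17 after RA), or 44.1-fold. *Phc3* minus *Phc1* shifted by 3.20 (SD 0.47 and 0.34), or 9.22-fold, and *Phc2* minus *Phc3* by 2.26 (SD 0.68 and 0.39), or 4.79-fold. None of these 3 differences overlapped between the conditions. Probes differ in brightness for the same amount of RNA, so the values do not say which gene was more abundant in either condition.

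**Figure D2:**
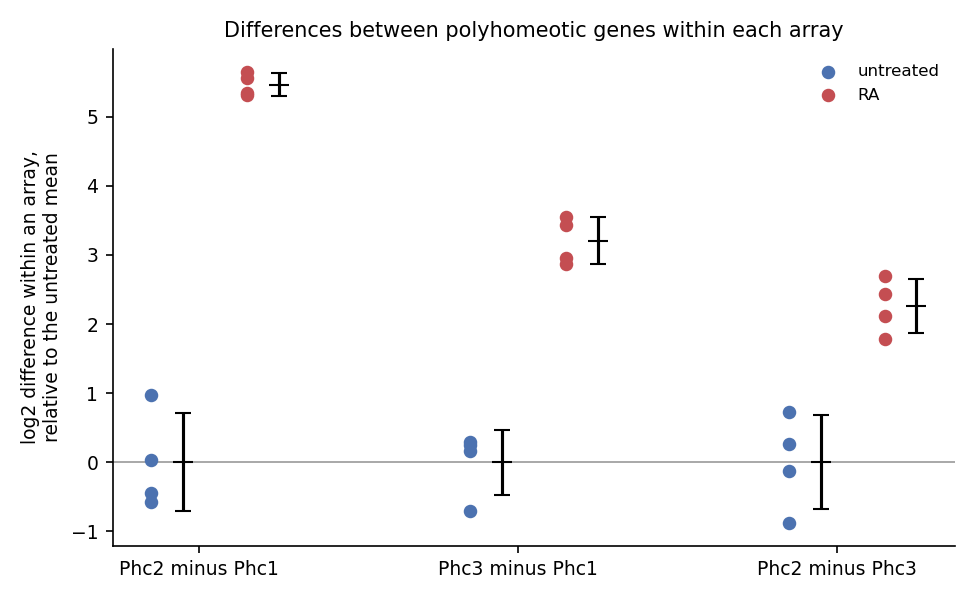
Log2 difference between pairs of polyhomeotic genes within each array, set to 0 at the mean of the untreated arrays, with 1 point per array and bars for the mean ± SD of 4 arrays. The RA arrays lie between 5.31 and 5.65 for Phc2 minus Phc1, above the highest untreated array at 0.98.

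The changes of *Phc1*, *Phc2* and the measured *Phc3* probe kept their direction with each way of making the values. Under quantile normalization, after normexp background correction, with the authors' processed log2 values, within each slide or with any single array left out, the *Phc1* change stayed between -2.90 and -2.53, the *Phc2* change between 2.62 and 2.94, and the *Phc3* change between 0.35 and 0.66. The change of the *Phc2* to *Phc1* difference stayed between 5.27 and 5.79. The dim *Phc3* probe went from -0.26 to values of 0.01 to 0.04 under quantile normalization and with the authors' values.

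**Figure D3:**
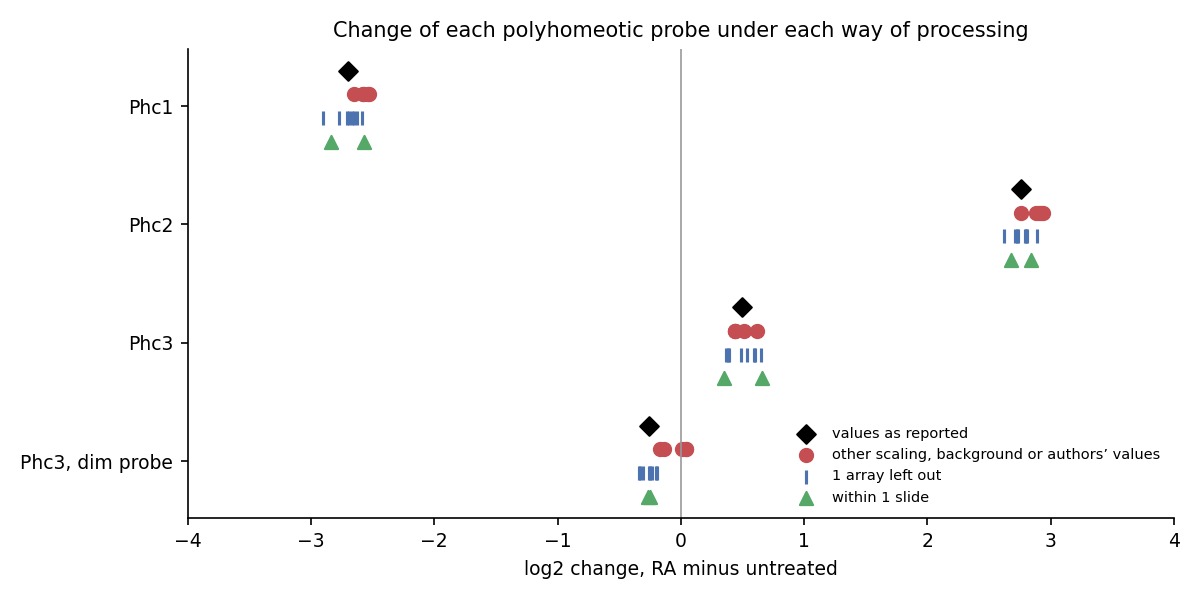
Log2 change (RA minus untreated) of each polyhomeotic probe as reported (black), with another scaling, background correction or the authors' values (red), with 1 array left out (blue) and within 1 slide (green). Phc1 lies between -2.90 and -2.53, Phc2 between 2.62 and 2.94 and the measured Phc3 probe between 0.35 and 0.66, while the dim Phc3 probe lies on both sides of 0.

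Further probes of the array map to the same loci without bearing a *Phc* name. One is described in the scanner output as polyhomeotic-like 1 under the transcript ENSMUST00000112600 and lies 20.5 kb from the *Phc1* probe, at chr6:122288521-122288580 of mm9. It read -1.25, -0.78, -1.55 and -1.86 on untreated arrays and -4.70, -3.84, -4.80 and -5.11 on RA arrays, without overlap. Its log2 change was -3.25 (SE 0.32), in the same direction as the named *Phc1* probe, and -2.25 to -2.11 with the normexp correction or the authors' values. A probe with no gene name, 10.8 kb from the *Phc2* probe at chr4:128419268-128419327, was not well above background in untreated cells and was so on all 4 RA arrays. On the processed intensity it was at least 6.33-fold higher after RA, where the bound compares the mean of the RA arrays with, for each untreated array, the lowest signal of any probe well above background or its own signal, whichever was higher. With the normexp correction or the authors' values the same probe differed by 0.63 to 0.86 on the log2 scale only, so that bounds given here hold for the processed intensity and not for these values. A probe described as polyhomeotic-like 2 (ENSMUST00000133439), 24.7 kb from the *Phc2* probe, was dim on all arrays. An unnamed probe 29.5 kb from the measured *Phc3* probe was well above background on 1 RA array only.

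Genes for the other PRC1 proteins changed in both directions. Of 33 genes for PRC1 partners, 11 rose, 9 fell and 13 were not called, where 18.6% of all genes were called higher and 23.5% lower, with a median log2 change of 0.00 beside -0.26 over all genes. *Ring1* and *Rnf2*, which encode the ubiquitin ligases, rose by 0.80 (SE 0.19, limma adjusted p = 0.00849) and 0.79 (SE 0.15, adjusted p = 0.00262). Among the Pcgf genes, whose products pair with the ligases, *Bmi1* rose by 1.36, *Pcgf5* by 1.32 and *Pcgf3* by 1.30, and *Pcgf6* fell by 0.68. *Pcgf1* (0.15) and *Pcgf2* (-0.33) were not called, although *Pcgf2* and *Bmi1* encode the Pcgf subunits of the canonical complexes that hold a polyhomeotic protein. A dim second probe of *Pcgf3* gave -0.45, and the *Pcgf6* call was lost under 5 of 17 alternatives, quantile normalization and the authors' values among them.

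The Cbx genes, whose products read the histone mark beside polyhomeotic in canonical PRC1, moved in both directions. *Cbx8* was well above background on RA arrays only. It was 13.8-fold higher there on the processed intensity (limma adjusted p = 0.000325), a fold that takes the dim untreated signal as it is. Its log2 change was 1.16 to 1.34 with the normexp correction or the authors' values, and it was called with each of them. *Cbx2* rose by 0.81 (SE 0.21, adjusted p = 0.0152), while *Cbx6* fell by 1.33 (SE 0.18, adjusted p = 0.0004). The *Cbx7* probe was well above background on 1 RA array and on no untreated array, so no change is given for it. The subunits of variant PRC1 also moved in opposite directions, with *Yaf2* up by 2.3 (SE 0.13, adjusted p = 6.42e-06) and *Rybp* down by 1.58 (SE 0.17, adjusted p = 0.000114). The *Phc1* change of -2.70 was larger in size than the decrease of any core partner named here, and the *Phc2* change of 2.76 was larger than every increase among them that was measured in both conditions, which leaves out *Cbx8*. *Phc1* and *Phc2* were chosen for their change on these same arrays and the partners were not, so nothing is read from this order. Among the accessory partners, *E2f6* (1.02) and *Kdm2b* (0.71) rose. *L3mbtl2* (-1.55), *Mga* (-1.22), *Max* (-0.83), *Wdr5* (-0.81), *Hdac2* (-0.79) and *Usp7* (-0.79) fell, the call of *Usp7* being lost under 4 of 17 alternatives.

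**Figure D4:**
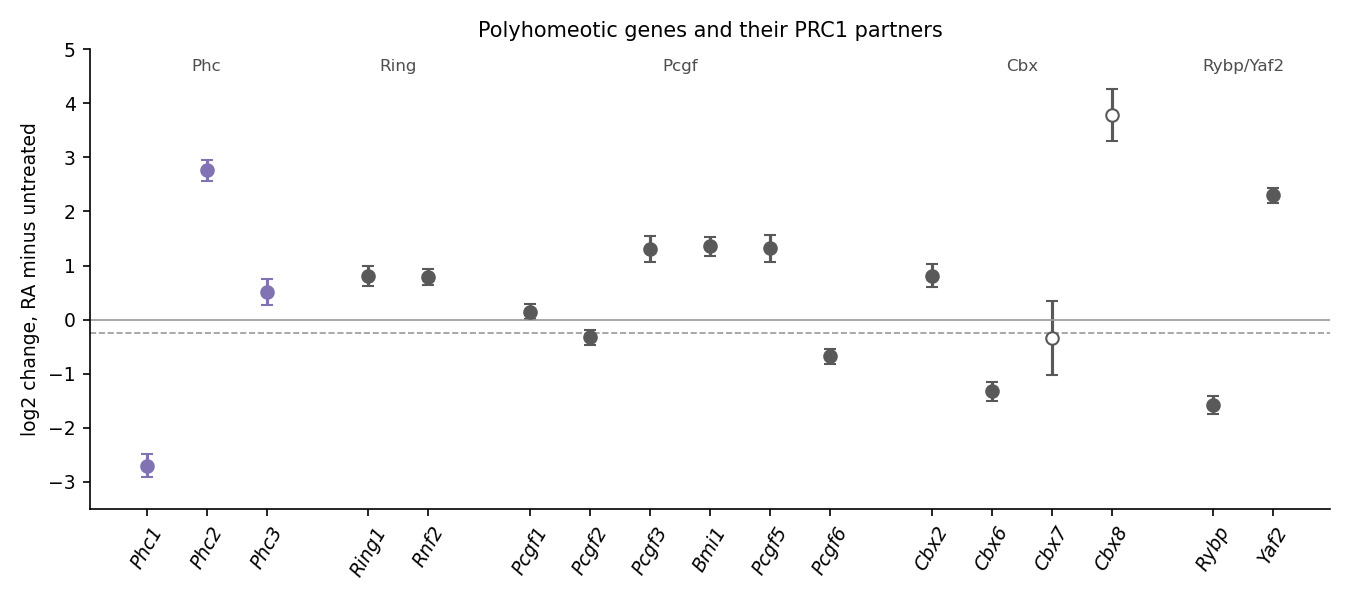
Log2 change (RA minus untreated) with its standard error for the 3 polyhomeotic genes (purple) and the core PRC1 partners named in the text (grey), with open circles for genes not well above background on any array of a condition and a dashed line at the median of all genes, -0.26. Phc1 lies lowest at -2.70 and Phc2 lies at 2.76, while the value drawn for Cbx8 falls to between 1.16 and 1.34 with the normexp correction or the authors' values.

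A list of 13 genes was taken for relatives of polyhomeotic, most of which encode proteins with a SAM domain. *Mbtd1*, whose product has MBT repeats but no SAM domain, was also in it. Of these genes 12 were on the array, of which 4 rose, 4 fell and 3 (*L3mbtl1*, *L3mbtl4* and *Samd11*) were dim on all arrays, beside 18.6% called higher and 23.5% called lower over all genes. Their median change was -0.30 and that of all genes -0.26. *L3mbtl3* rose by 1.72 (SE 0.23, limma adjusted p = 0.000464) and *Sfmbt2* by 1.62 (SE 0.23, adjusted p = 0.000579). *Scmh1* (0.67), which encodes a partner of polyhomeotic through the SAM domain, and *Sfmbt1* (0.65) also rose, although these calls were lost under 5 and 3 of 17 alternatives. A second bright probe of *Sfmbt1* gave 0.27 and was not called. *Scml4* (-1.59, but -0.84 with the authors' values), *Scml2* (-1.28) and *Mbtd1* (-0.97) fell. *Samd7* was not well above background on any RA array and was at least 38.4-fold lower there on the processed intensity (adjusted p = 1.3e-05). With the normexp correction or the authors' values its log2 change was -2.11 to -1.93, and it was still called.

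PRC2 places the histone mark that canonical PRC1 reads, and most of its genes were lower after RA, as *Phc1* was. Of 12 genes 8 fell and 2 rose, where 23.5% of all genes were called lower and 18.6% higher, and the median change was -0.91 beside -0.26 over all genes. *Jarid2*, which encodes an accessory subunit, fell by 2.59 (SE 0.17, limma adjusted p = 1.2e-05), close to the size of the *Phc1* change. *Aebp2* (-1.77), *Mtf2* (-1.72), *Phf19* (-1.38), *Eed* (-1.26), *Suz12* (-0.97), *Epop* (-0.84) and *Ezh1* (-0.80) also fell. *Ezh2*, the main methyltransferase gene, was at 0.06 and *Rbbp4* at -0.05, and neither was called, although a second bright probe of *Rbbp4* fell by 1.19 (adjusted p = 0.00818). *Rbbp7* rose by 1.08 and *Phf1* by 0.64, the latter losing its call under 5 of 17 alternatives.

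The genes next to each polyhomeotic gene show what its chromosomal neighbourhood did. Within 500 kb of the *Phc1* probe lay probes of 14 other genes, of which 7 fell, none rose and 4 were dim on all arrays. The share called was 50%, near that of all genes, and the share called lower was 50% beside 23.5% over all genes. Both shares depend on the window, being 37.5% (3 of 8 genes) within 250 kb and 28.1% (9 of 32) within 1000 kb, with no gene called higher in either. *M6pr*, whose probe lies 1.3 kb from that of *Phc1*, fell by 1.50 (SE 0.20, limma adjusted p = 0.000393). The other 6 lay between 74.5 and 396.5 kb on the other side, among them the pluripotency-associated genes *Nanog* (-4.55), *Dppa3* (-6.00, and -4.62 with the authors' values) and *Gdf3* (-5.73), all of which fell further than *Phc1*. A second bright probe of *Nanog* gave 0.52 and was not called. *Apobec1* (-3.67) and *1700063H04Rik* (-5.37) lay there too. The probe of *1700063H04Rik* was well above background on 3 of the 4 RA arrays, and its change was -3.66 to -3.54 with the normexp correction or the authors' values. In addition, the 3 neighbours that gave a measured level without being called lay on the same side.

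Around *Phc2*, 3 of 15 genes rose and 4 fell, so 46.7% were called, close to the 42.2% of all genes. *Zfp362*, with its probe 20.3 kb away, rose by 4.29 (SE 0.28, limma adjusted p = 1.04e-05), more than *Phc2* itself, and *Fndc5* rose by 2.43. *A3galt2*, 16.4 kb away and well above background on 3 of the 4 untreated arrays, rose by 0.75 (adjusted p = 0.035). That call was lost under 11 of 17 alternatives, the replicate block among them (adjusted p = 0.0519, range over the alternatives 0.00232 to 0.345), and the log2 change was 0.13 to 0.37 with the normexp correction or the authors' values. Those that fell included *Zscan20* (-0.98), *Rnf19b* (-0.92) and *C77080* (-0.66, lost under 6 of 17 alternatives). Around *Phc3*, 7 of 12 genes fell and 1 rose, so 66.7% were called beside 42.2% of all genes, and 58.3% were called lower beside 23.5%, while *Phc3* itself changed by less than 1.5-fold. *Gpr160*, 3.3 kb from the measured *Phc3* probe, fell by 3.1 (SE 0.22, adjusted p = 1.57e-05), or by 2.49 with the authors' values. *Lrriq4* (-7.51), *Lrrc34* (-3.67), *Mynn* (-1.02) and *Skil* (-0.61, lost under 9 of 17 alternatives) also fell. The probe of *Lrriq4* was well above background on 2 of the 4 RA arrays, and its change was -4.83 to -4.66 with the normexp correction or the authors' values. *Samd7* lay 133.2 kb away, and *Slc7a14* was called lower although dim on all arrays. *Cldn11*, dim in untreated cells, was 7.24-fold higher on the processed intensity, a fold that takes the dim signal as it is. Its log2 change was 0.66 to 0.89 with the normexp correction or the authors' values. Genes of 1 neighbourhood are not independent of each other, and the counts are descriptions.

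**Figure D5:**
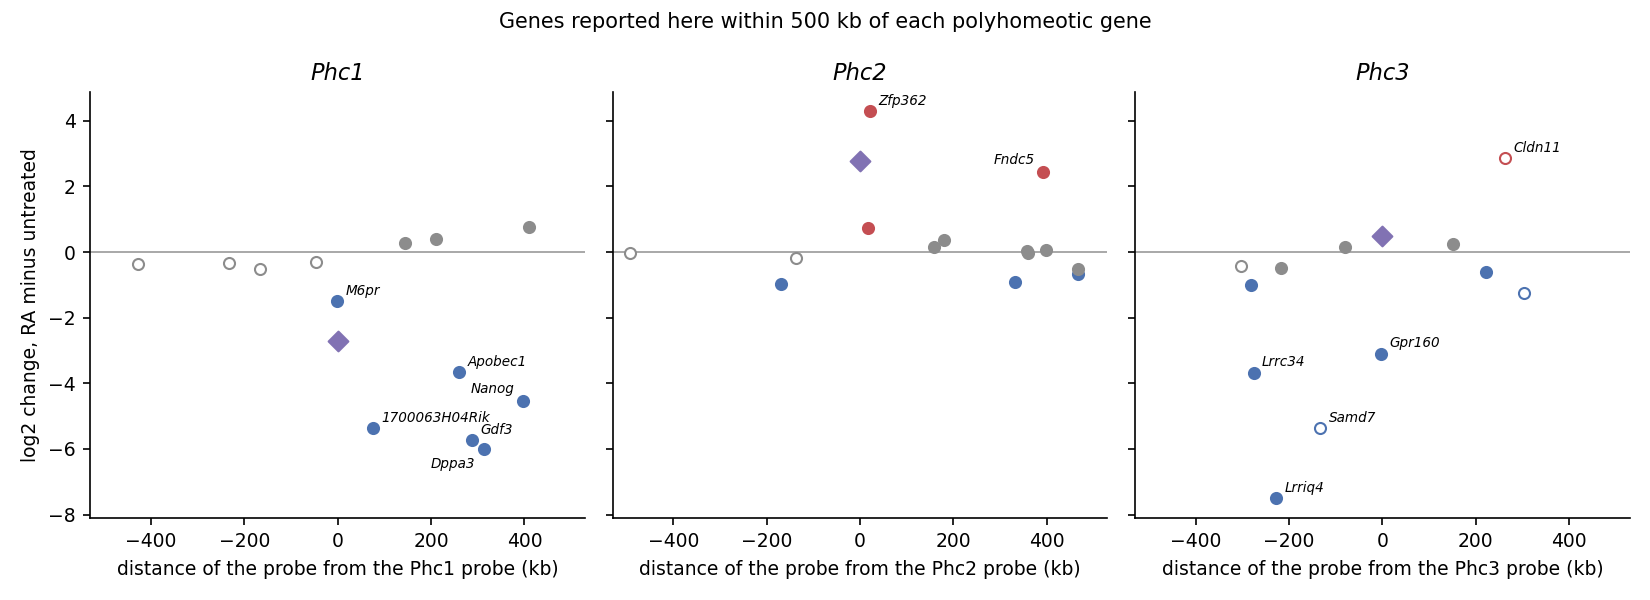
Log2 change (RA minus untreated) of genes reported here within 500 kb against the distance of their probe from the polyhomeotic probe in kb, with red for called higher, blue for called lower, grey for not called, open circles for probes not well above background on any array of a condition, and a purple diamond for the polyhomeotic gene. Phc1 and its called neighbours lie below 0, Zfp362 beside Phc2 rose by 4.29, and Gpr160 beside Phc3 fell by 3.1.

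Profiles over the 8 arrays were compared after centring each gene, by the root mean square difference from the polyhomeotic gene among 13959 genes well above background on all arrays. The closest to *Phc1* were *Adam23* (0.13 log2), *Pml* (0.14), *Mybl2* (0.16), *Fam98c* (0.17) and *Cth* (0.18), where the median gene lay 1.33 away. The closest to *Phc2* were *Clcn5* (0.13), *Oprl1* (0.14), *Mbd2* (0.18), *Pknox2* (0.19) and *Lrrc32* (0.20), with a median of 1.50. The closest to *Phc3* were *Creb3l2* (0.12), *Cgas* (0.12), *Styx* (0.13), *Dync2h1* (0.15) and *Gm7467* (0.17), with a median of 0.60. With the authors' values 2 of the 5 genes named for *Phc1*, 0 of those for *Phc2* and 4 of those for *Phc3* stayed among the 5 closest, so the order near *Phc1* and *Phc2* depends on the processing.

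Markers of cell types moved with the same contrast as the polyhomeotic genes. The summed level of each list, in which its brightest genes weigh most, is given in units of the 75th percentile of the array. Markers are counted as risen or fallen when called, beside 18.6% of all genes called higher and 23.5% called lower. All 10 ES cell markers fell, and their sum went from between 475 and 666 on untreated arrays to between 45.8 and 122 after RA. All 9 genes of the RA response rose (from between 8.16 and 13.8 to between 114 and 230). All 8 primitive endoderm markers rose (from between 9.18 and 24.5 to between 72.4 and 92.8), as did 5 of 6 fibroblast markers (from between 1.05 and 1.83 to between 30.7 and 49.1), of which *Lum* was dim in untreated cells. Of 8 neural markers 3 rose and 2 fell (from between 6.71 and 11 to between 14.1 and 15.3), with *Dcx* dim in untreated cells. Of 6 mesoderm markers 2 were called lower and none higher (from between 2.25 and 2.75 to between 1.96 and 3.55). *Mixl1* was called lower although dim on all arrays, so that call rests on signal near background. The part of these cell types in the changes of *Phc1* and *Phc2* was not tested.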

How the data were processed

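RNA of 8 cultures (4 untreated, 4 with 1 µM RA for 72 h) was measured on 1-colour arrays. The authors deposited the Agilent Feature Extraction (version 10.7.3.1) output of each array, with a background-corrected intensity per spot that is not normalized between arrays, its raw and background intensity, and flags for spots well above background or outlying. They also deposited a table of log2 values of the same spots, whose processing is not given in the sources used here. In R (version 4.3.3), log2 of the processed intensity minus the 75th percentile of each array over 59305 spots was used, control spots (3671) and outlier spots (124 to 145 per array) were left out, and spots of a probe were averaged. A gene takes its probe with the highest mean. Conditions were compared with limma (version 3.58.1, lmFit and eBayes), unblocked, with Benjamini-Hochberg adjustment over 55681 probes.

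The methods state the FDR of 0.05 and the 1.5-fold limit. Named genes were the core PRC1 partners, the other partners and the SAM, PRC2 and neighbouring genes that were called and well above background in a condition, the 5 closest profiles, and the markers *Pou5f1*, *Nanog*, *Rarb* and *Cyp26a1* (which rose by 6.09 on the log2 scale). *Rbbp4*, *Ezh2*, genes dim on all arrays and second probes were named after their values were seen. Some genes that this rule names are counted but not reported singly here. The members and lists were chosen with earlier results of these data known.

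Positions are those of the scanner output (mm9); promoters come from RefSeq (GRCm38.p6) and the 2 builds were not joined. Deviations of same-numbered arrays from the condition means correlated at 0.187, 0.189, 0.104 and 0.152 over 27508 probes (highest between different numbers 0.142). The value of replicate 3 was below that highest value. Only replicates 1 and 2 had both arrays on the same slide, so number and slide cannot be told apart for them. The labels do not say what a number shares, so whether the numbers pair the cultures is not known. Calls come from the fit without blocks, and the replicate block is an alternative. In simulated data 139 of 200 probes changed by a log2 value of 2 among 55640 were recovered, with 8 false calls. Alternatives were the scaling, the background correction (normexp, offset 50), the authors' values, the replicate and slide as blocks, each array left out, a filter on dim probes, a fold change above 2 and other windows. The precision is limited by the number of arrays. No array was left out.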

Additional observations from a re-analysis of the deposited data

Results flagged for a closer look

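In 10 of 168 groups of 4 arrays, covering the polyhomeotic probes and the genes named with them, 1 array lay apart from the other 3, where chance alone gives about 8.4 such groups. No polyhomeotic probe was among them. After RA, replicate 2 stood apart for *Kdm2b* (5.12 on the log2 scale, the others 4.92 to 4.95), *Samd7* (-6.84, the others -8.04 to -7.99, all dim), *C77080* (3.11, the others 2.96 to 2.99) and *Pml* (1.49, the others 1.22 to 1.27), and replicate 1 for *A3galt2* (-4.27, the others -4.13 to -4.11). In untreated cells replicate 1 stood apart for *Scml2* (-0.22, the others -1.01 to -0.91), *Lrriq4* (1.91, the others 0.88 to 0.99) and *Skil* (2.97, the others 2.61 to 2.67). Untreated replicate 4 stood apart for *Phf1* (-1.49, the others -0.96 to -0.86) and untreated replicate 3 for *Fam98c* (3.61, the others 4.13 to 4.15).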

How the results depend on the processing

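No result changed direction among 1465 pairs of a result with an alternative, apart from values that were not called, among them the dim *Phc3* probe and the dim probes at the *Phc2* and *Phc3* loci. The changes of *Phc1*, *Phc2* and the measured *Phc3* probe and of the 3 differences between them moved by less than the SD between replicates pooled over both conditions, although the largest moves of *Phc1*, *Phc2* and their difference exceeded the smaller SD of the RA arrays. The limits of the dim *Phc3* probe are those of its signal over background (0.01 with quantile normalization, 0.04 with normexp and quantile normalization and 0.04 with the authors' values). With the replicate number as a block, complete pairs keep each change as it is by construction (-2.70, 2.76 and 0.50), so only errors and calls can move. The replicate block left the counts of PRC1 partners at 11 and 9 and ended no call of a named gene other than *A3galt2*. A fold change above 2 left 7 PRC1 partners higher and 4 lower, 2 relatives of polyhomeotic higher, 1 PRC2 gene higher and 5 lower, and 3 genes near *Phc2*. At that limit 5285 of all 55681 probes were called higher and 8112 lower, so the calls over the whole array became fewer too. Beside 42.2% called over all genes, a window of 250 kb held 3 called of 8 genes near *Phc1* (37.5%), 3 of 6 near *Phc2* (50%) and 4 of 7 near *Phc3* (57.1%), and one of 1000 kb held 9 of 32 (28.1%), 18 of 37 (48.6%) and 9 of 13 (69.2%). With normexp and the 75th percentile, 1 PRC2 gene was called higher. With each array left out in turn 1 to 2 PRC2 genes were higher, *Phf1* being lost without untreated replicate 4 (0.50), RA replicate 1 (0.63) or RA replicate 2 (0.59). *Scmh1* was lost without untreated replicate 1 (0.50), RA replicate 2 (0.63) or RA replicate 4 (0.65), *Sfmbt1* without untreated replicate 2 (0.57), *C77080* without untreated replicate 1 (-0.54), *Skil* without untreated replicate 1 (-0.53), RA replicate 1 (-0.58) or RA replicate 3 (-0.58), and *A3galt2* without any single array other than untreated replicates 1 and 3 (0.52 to 0.78). The normexp correction and the authors' values also gave smaller changes for the markers *Rarb* (5.67 to 5.83) and *Cyp26a1* (4.68 to 4.81). Without RA replicate 2 the change of *Pou5f1* was -6.17. Over the whole array 12044 probes were called lower and 7196 higher (37.4% of those called were higher), but 6603 were lower with normexp and quantile normalization and 6583 with the authors' values. The share of calls that were higher was 48.4% with quantile normalization, which moved the median change of all probes from -0.28 to -0.0026. Of the 5 genes closest to *Phc1*, 2 stayed among the closest with normexp and the 75th percentile, 2 with normexp and quantile normalization and 2 with the authors' values. Of those closest to *Phc2*, 3 stayed with quantile normalization, 1 with normexp and the 75th percentile, 0 with normexp and quantile normalization and 0 with the authors' values. The comparison of closest genes, and the use of these alternatives for single named genes and for the further probes at the loci, were chosen after seeing the data. The cause of these shifts was not tested, except that a stricter fold or a smaller window holds fewer genes by construction.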
